A study of Bos taurus with 8 samples.

Results

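The genes of the vacuolar proton pump were examined in rumen papillae of dairy cows fed either a low-concentrate diet (LC; 40% concentrate of dry matter) or a high-concentrate diet (HC; 70%). The set was defined by gene name, with earlier results of these data known. It holds 10 genes: ATP6V1A, ATP6V1B1, ATP6V1B2, ATP6V1C1, ATP6V1D, ATP6V1E1, ATP6V0A1, ATP6V0C, ATP6V0D1 and ATP6AP1. A member is measured where the RefSeq accession of an array probe belongs to the gene in the current bovine reference. This held for 9 of the 10 genes, each by 1 probe, among 7788 named genes on the array. ATP6V0A1 was not matched to a probe and is not analysed here.

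All 8 samples were rumen papillae of 4 female, lactating, ruminally cannulated Holstein cows, each of which received both diets in a crossover of 2 periods. Cows 1 and 2 received LC first and HC second, cows 3 and 4 the reverse, which gave 4 LC and 4 HC samples. The papillae were taken on day 21 of a period, 4 h after the morning feeding, from the ventral sac of the rumen, and all cows had received a low-concentrate diet before the trial. Each sample was hybridized in one colour to 1 array, and the ages of the cows are not given in the sources used here. A papilla holds a squamous epithelium over a core of connective tissue and vessels, so each array measures a mixture of cell types. In such bulk samples, fewer cells of a type and less RNA per cell cannot be told apart.

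The vacuolar proton pump (V-ATPase) is a rotary machine that uses ATP to move protons out of the cytosol, into lysosomes and endosomes and, in some specialised epithelia, across the plasma membrane. Its peripheral sector, V1, splits ATP, and its membrane sector, V0, carries the protons. In the rumen, the epithelium absorbs short-chain fatty acids from an acidic content and has to keep its cytosol close to neutral, and the pump is one of the proton-moving proteins described in this tissue. No nucleotide or protein sequence of these genes is printed, since none was in the files used here.

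Control spots were removed, the log2 intensities of the scanner output were quantile-normalized between arrays, with the spots of each probe averaged. Per array, 76.9 to 81.2% of the 21475 probes were well above background by the test of the scanner software, and no spot was saturated. The number of arrays limits the precision. Each slide held the arrays of 1 period, so a slide difference and a period difference cannot be told apart, and each cow had the same position on both slides, so cow and position cannot be told apart either. Cows are numbered as in the labels of the scanner files, and in the normalized table the authors deposited cows 1 and 2 are exchanged on both diets, so values given for cow 1 may belong to cow 2 and the reverse. Of the 8 squamous epithelial markers with a probe, 7 were well above background on all 8 arrays (KRT14, KRT15, KRT6A, DSG3, DSP, EPCAM and SFN), and TP63 was so on none.

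All 9 measured genes of the pump were well above background on all 8 arrays. With diet, period and their interaction fitted in limma, 0 of the 9 genes passed the study's rule for a difference between the diets, a fold change of at least 1.5 with an unadjusted p under 0.05, against 0.922% of all probes and 0.274% of the 16030 probes that were well above background on every array. One gene, ATP6V1B2, had an unadjusted p under 0.05 from limma, and the same 1 gene had it in a linear model without moderation, against 3.65% of all probes and 2.61% of these 16030 in limma. Its signal was 1.20-fold higher in the HC group. The adjusted p value (Benjamini-Hochberg over all 21475 probes) was 1.00 for each of the 9 genes, and 0.00% of all probes had one under 0.05. The log2 fold change, HC minus LC, was above 0 for 4 genes and below 0 for 5, with a median of -0.01 and a range from -0.11 to 0.26, against a median of 0.00 for all probes.

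**Figure D1:**
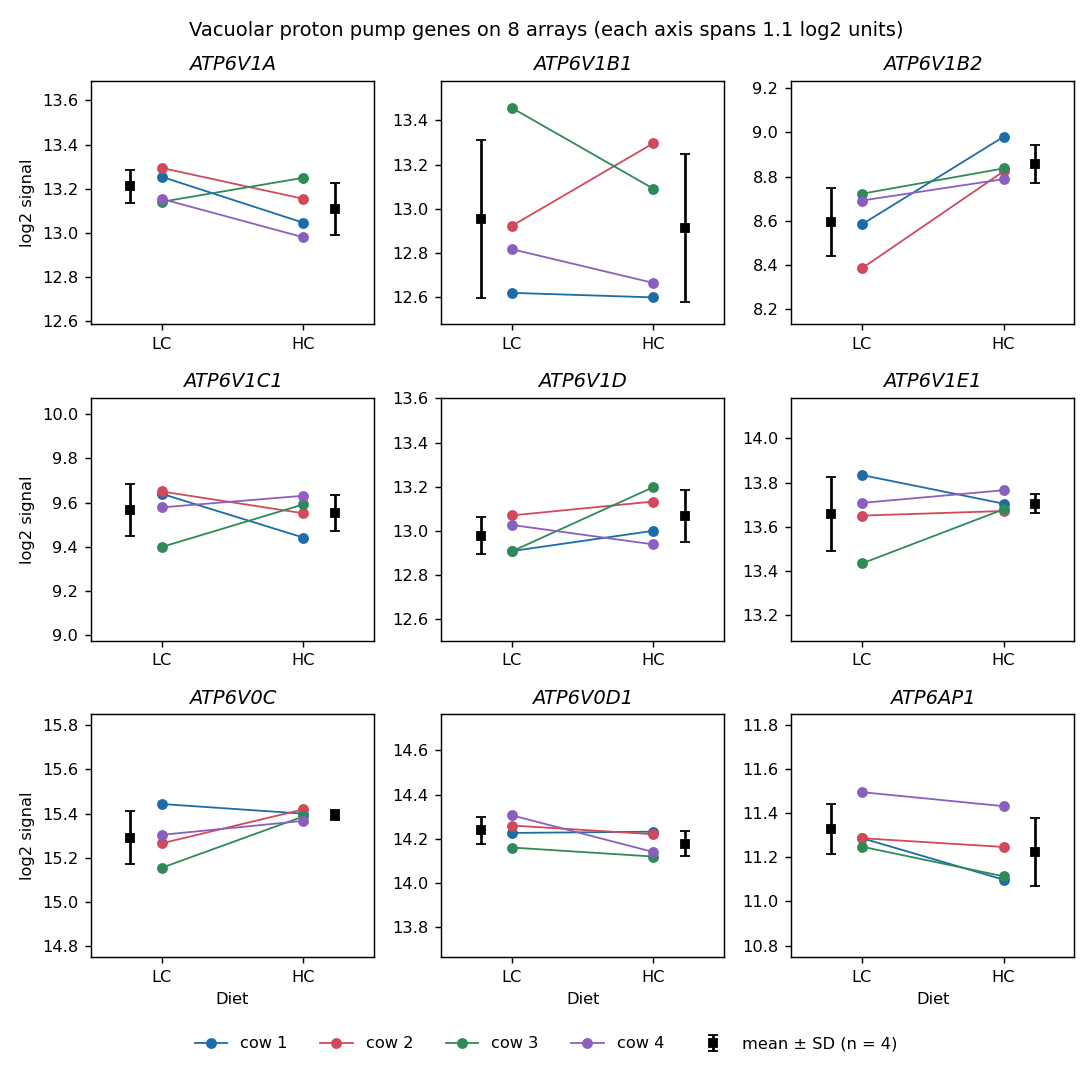
Normalized log2 signal (vertical axis) of the 9 measured genes on the LC and HC diets (horizontal axis), with a line per cow and black squares for the mean ± SD (n = 4). The lines of ATP6V1B2 all go up and its LC and HC points do not overlap, those of ATP6AP1 all go down with overlapping points, and ATP6V1B1 has the widest spread between cows.

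Subunit A, encoded by ATP6V1A (NM_174504), holds the site where ATP is split. Its log2 signal was 13.25, 13.29, 13.14 and 13.15 in cows 1 to 4 on LC, and 13.05, 13.15, 13.25 and 12.98 on HC. The ranges of the diets overlapped, with a higher HC signal only in cow 3. The log2 fold change was -0.10 (standard error 0.10, 95% confidence interval -0.34 to 0.13), and the unadjusted p value was 0.327 in limma and 0.229 in an exact two-sided permutation test.

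Subunit B alternates with subunit A in the ring of V1 and is encoded by a pair of genes. ATP6V1B1 is known from proton-secreting epithelia such as the kidney collecting duct, where its loss causes renal tubular acidosis with deafness, and ATP6V1B2 is the isoform of most other cells. ATP6V1B1 (NM_176654) had log2 signals of 12.62, 12.92, 13.46 and 12.82 in cows 1 to 4 on LC and of 12.60, 13.30, 13.09 and 12.66 on HC. The ATP6V1B1 signals of the diets overlapped over nearly their whole range, with a mean of 12.95 ± 0.36 (SD, n = 4) on LC and 12.91 ± 0.34 (SD, n = 4) on HC. The estimated log2 fold change was -0.04 for ATP6V1B1 (standard error 0.23, 95% confidence interval -0.60 to 0.51; limma, unadjusted p = 0.863). Its sign turned when the array omitted was LC of cow 2 or 3 or HC of cow 1 or 4, and over all 8 such fits it was -0.22 to 0.13.

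ATP6V1B2 (NM_176671) had log2 signals of 8.58, 8.38, 8.72 and 8.69 in cows 1 to 4 on LC and of 8.98, 8.82, 8.84 and 8.79 on HC. Every HC array was above every LC array, which held for 1.60% of all probes, in either direction. The means were 8.60 ± 0.15 (SD, n = 4) on LC and 8.86 ± 0.08 (SD, n = 4) on HC. The log2 fold change was 0.26 (standard error 0.09, 95% confidence interval 0.04 to 0.49), and the unadjusted p value was 0.0295 in limma and 0.0286 in an exact two-sided permutation test, the smallest value that 4 arrays against 4 allow. That permutation test did not pair the arrays by cow. An exact sign-flip test over 4 cows, not run for this gene, cannot give a p under 0.125. The whole interval lay under a fold change of 1.5, and the adjusted p was 1.00. The rise from LC to HC was 0.40 in cow 1, 0.44 in cow 2, 0.11 in cow 3 and 0.10 in cow 4. Cows 1 and 2 had HC in period 2 and cows 3 and 4 in period 1, so each rise also holds a period difference. For ATP6V1B2 that difference, period 2 minus period 1, was 0.16 (standard error 0.09, unadjusted limma p of 0.143). The probe had 2 spots per array, which differed by 0.04 to 0.19 on the log2 scale, with a median of 0.10. Of the genes in the set, ATP6V1B2 and ATP6AP1 changed the same way in all 4 cows, as did 11.0% of all probes.

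The difference of ATP6V1B2 was tested under 17 other settings. Its log2 fold change was above 0 in each, and the unadjusted p was under 0.05 in 11, of which 1 was the linear model without moderation and the others were limma fits. With cow as a block and period in limma, the p was 0.0282 at the same fold change. As single arrays were left out, the unadjusted p lay between 0.0315 and 0.102. It was highest, at a log2 fold change of 0.21, with LC of cow 2 omitted, and above 0.05 in 6 of these 8 fits, all but those without LC of cow 1 or HC of cow 2. Macrophages are rich in lysosomes, and of 9 macrophage and dendritic markers, 5 had a probe and 4 of these (CD68, CD14, AIF1 and LYZ) were measured. The log2 fold changes of these 4 were 0.08 to 0.31, with 0 of 4 at an unadjusted p under 0.05 from limma, and for ITGAM no array was well above background. The log2 of the summed signal of the markers was 10.70 to 11.22 on LC and 10.60 to 11.70 on HC. In cows 1 to 4 this sum was 11.06, 11.22, 10.70 and 11.05 on LC and 11.70, 11.36, 10.60 and 11.20 on HC. This sum, to which the brightest markers add most, was higher on HC in cows 1, 2 and 4 and lower in cow 3. The single markers did not all share these directions. In cow 4, CD14 was higher on HC by 0.65, while CD68, AIF1 and LYZ changed by -0.55, -0.43 and -0.51. In cow 3, CD68 and LYZ were higher by 0.48 and 0.33, while CD14 and AIF1 changed by -0.14 and -0.16. The part of these cells in the ATP6V1B2 difference was not tested.

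Because the B isoforms take the same place in the pump, the change of ATP6V1B1 was set against that of ATP6V1B2 within each array. The difference, ATP6V1B1 minus ATP6V1B2, was lower on HC than on LC in 4 of 4 cows, by -0.42, -0.06, -0.48 and -0.25 in cows 1 to 4. Its mean change was -0.30 on the log2 scale, with an exact two-sided permutation p of 0.257 over the 4 LC and 4 HC arrays. With the arrays paired by cow, an exact sign-flip test gave 0.125, the smallest p that 4 cows allow, so that this test could not reach 0.05.

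**Figure D2:**
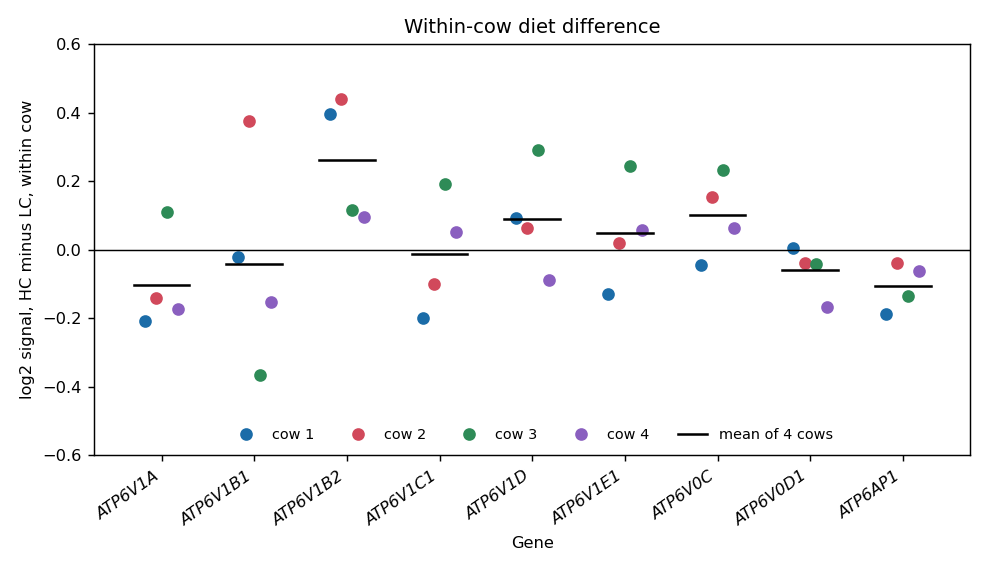
Difference in log2 signal between the HC and the LC array of each cow (vertical axis) for the 9 measured genes (horizontal axis), with a point per cow and a black bar for the mean of the 4 cows. All points of ATP6V1B2 lie above 0 and all points of ATP6AP1 below 0, and ATP6V1B1 spans from -0.37 in cow 3 to 0.37 in cow 2.

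The other V1 genes encode the stalks that join the ring to the membrane sector. ATP6V1C1 (NM_176676) encodes subunit C, which holds the outer stalks to V0 and lets go when the pump is switched off by disassembly. Its log2 signals were 9.64, 9.65, 9.40 and 9.58 on LC and 9.44, 9.55, 9.59 and 9.63 on HC, and the ranges overlapped. The estimate for ATP6V1C1 was a log2 fold change of -0.01 ± 0.09 (standard error), at an unadjusted limma p value of 0.889, and it ranged from -0.06 to 0.03 as single arrays were left out, with a turned sign when LC of cow 4 or HC of cow 1 was the array omitted.

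ATP6V1D (NM_001075141) encodes a subunit of the central shaft. Its log2 signals were 12.91, 13.07, 12.91 and 13.03 on LC and 13.00, 13.13, 13.20 and 12.94 on HC. They were higher on HC in 3 of 4 cows, with overlapping ranges. The estimated log2 fold change was 0.09 ± 0.10 for ATP6V1D (standard error), at an unadjusted limma p value of 0.424.

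ATP6V1E1 (NM_174810) encodes subunit E of the outer stalks. On LC its log2 signals were 13.83, 13.65, 13.43 and 13.71, and on HC they were 13.70, 13.67, 13.68 and 13.77. The HC signals lay inside the range of the LC signals. For ATP6V1E1, the log2 fold change came to 0.05 ± 0.10 (standard error; limma, unadjusted p = 0.655), and it was -0.02 without the LC array of cow 3, the lowest of the 8.

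In the membrane sector, ATP6V0C (NM_001017954) encodes the proteolipid that forms most of the rotating ring through which protons pass. Its log2 signals were 15.44, 15.27, 15.15 and 15.30 in cows 1 to 4 on LC and 15.40, 15.42, 15.39 and 15.37 on HC. The HC signals were close together and the LC signals spread around them, with an SD of 0.02 on HC and of 0.12 on LC (n = 4 each). The diets differed in ATP6V0C by a log2 fold change of 0.10 (standard error 0.09, 95% confidence interval -0.12 to 0.32; limma, unadjusted p = 0.303).

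ATP6V0D1 (NM_174505) encodes subunit d, which couples the central shaft to the ring. The log2 signals of ATP6V0D1 were 14.23, 14.26, 14.16 and 14.31 on LC and 14.23, 14.22, 14.12 and 14.14 on HC. They varied least among the 9 genes, within 0.19 log2 units over all 8 arrays. Its log2 fold change was -0.06 ± 0.08 (standard error; limma, unadjusted p = 0.494).

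ATP6AP1 (NM_175806) encodes Ac45, an accessory glycoprotein that sits in V0 and is needed for its assembly. Its log2 signals were 11.29, 11.29, 11.25 and 11.49 in cows 1 to 4 on LC and 11.10, 11.25, 11.11 and 11.43 on HC. Cow 4 was the highest on both diets, and the ranges of the diets overlapped. The signal was lower on HC in 4 of 4 cows, by 0.04 to 0.19. For ATP6AP1, the log2 fold change was -0.11 (standard error 0.12, 95% confidence interval -0.39 to 0.17), and its unadjusted limma p value was 0.391, or 0.275 with cow as a block.

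The 95% confidence interval of the diet difference lay wholly within a fold change of 1.5 in either direction for 8 of the 9 genes, against 79.0% of the 16030 probes that were well above background on all 8 arrays. The exception was ATP6V1B1, whose interval reached -0.60. With cow as a block, the interval of ATP6V1B1 was -0.34 to 0.26. The half-width of the interval was 0.20 to 0.56 log2 units, with a median of 0.24, against 0.31 for those 16030 probes. These half-widths and the count of 8 come from the fit without cow, which does not pair the arrays by animal. In that fit, with 4 arrays per diet, a change smaller than these half-widths could not be told from 0.

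**Figure D3:**
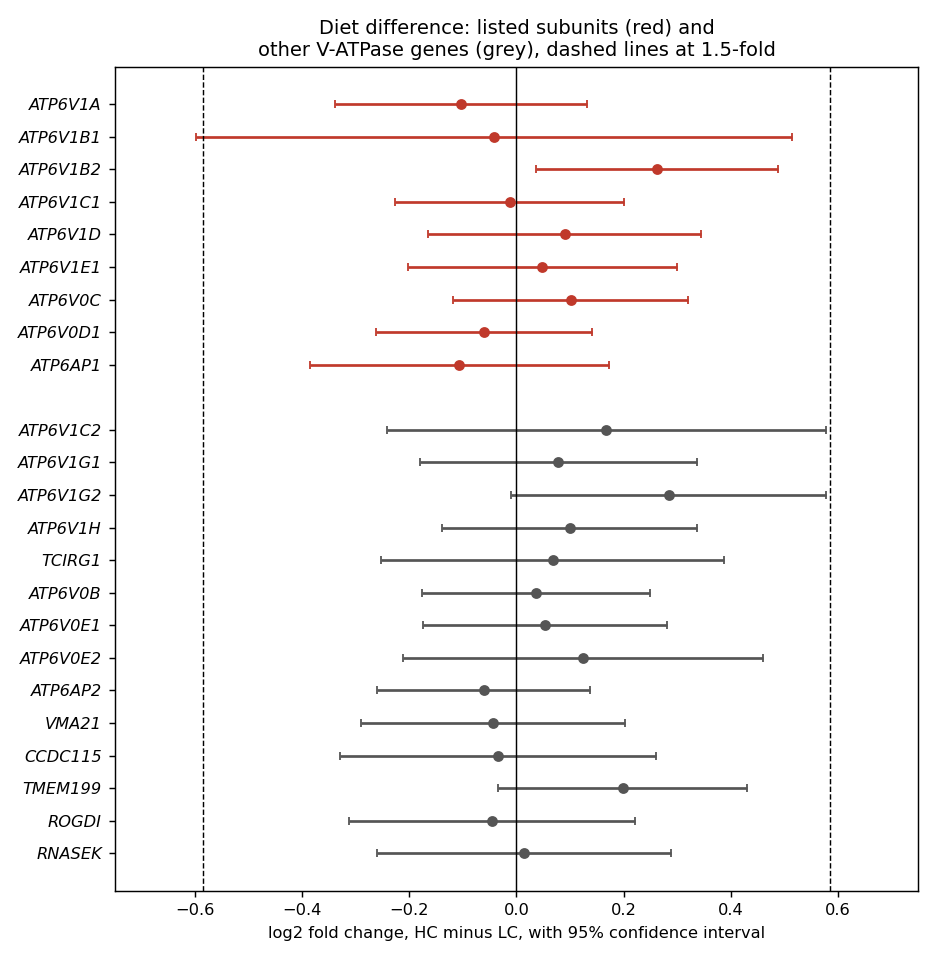
Log2 fold change between the diets, HC minus LC, with its 95% confidence interval from limma (horizontal axis), for the 9 measured genes of the set (red) and the 14 other V-ATPase genes that were well above background on all 8 arrays (grey). Dashed lines mark a fold change of 1.5; the interval of ATP6V1B1 crosses one of them, and that of ATP6V1B2 alone does not include 0.

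Differences between cows were also described. ATP6V1B1 had an SD of 0.32 log2 units over the 8 arrays, and the other 8 genes had 0.06 to 0.18. Among the 16030 measured probes the median SD was 0.20, so 8 of the 9 genes varied less than that median and ATP6V1B1 more than 80.2% of these probes. The probes were not matched for brightness, on which the SD of an array signal depends. Averaged over both diets, the ATP6V1B1 log2 signal was 12.61 in cow 1, 13.11 in cow 2, 13.27 in cow 3 and 12.74 in cow 4. These cow means spanned 0.66 log2 units, while the difference between the diets within a cow was on average 0.23 in size. ATP6V1B2 showed the opposite order, with cow means that spanned 0.18 and an average within-cow difference of 0.26. So did ATP6V1C1, with 0.11 and 0.14, and in ATP6V1A both were 0.16. A span of means and an average of differences are unlike measures, so their order is a description.

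**Figure D4:**
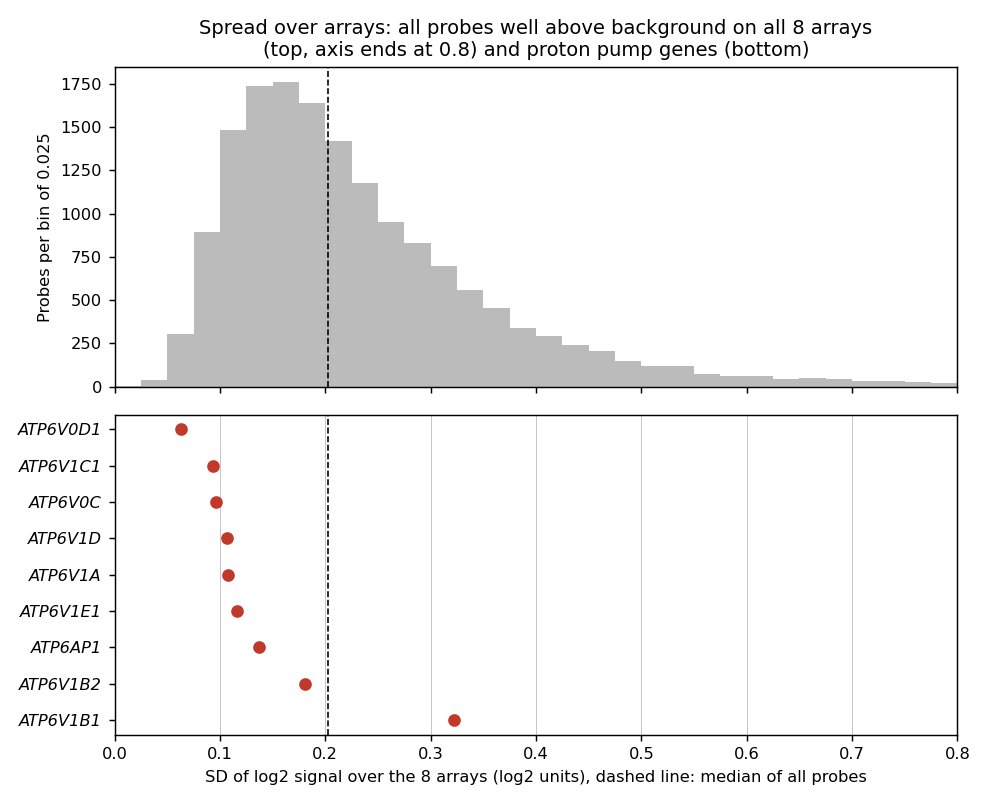
Distribution of the SD of the log2 signal over the 8 arrays (horizontal axis) for the 16030 probes measured above background on every array (top, probes per bin) and its value for each of the 9 measured genes (bottom), with the median of 0.20 as a dashed line. ATP6V0D1 has the smallest SD of the set (0.06), and ATP6V1B1, at 0.32, is the only one above the median.

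Correlations between the genes of the set took both signs. Across the 36 pairs, Pearson's r over the 8 arrays had a median of 0.01 and ranged from -0.82 to 0.84, and 19 pairs had an r above 0. The 8 arrays come from 4 cows and 2 slides and are not independent, so these values are a description. With each gene centred on its own mean, the mean deviation of the 9 genes lay between -0.05 and 0.07 log2 units on every array. Among 6446 other named genes well above background on all arrays, those whose pattern was most like that of ATP6V1A were FKBP14, SLC25A22 and PRRG1, with an r of 0.96, 0.95 and 0.93 over the 8 arrays. They were picked as the highest of 6446 values, a choice that by itself favours a high r, so they too are a description.

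For period, 0 of the 9 genes passed a fold change of at least 1.5 with an unadjusted p under 0.05 in limma. This rule was passed by 3.86% of all probes and by 312 of the 16030 probes that were well above background on every array. An unadjusted p under 0.05 in limma was found for 0 of 9, against 12.3% of all probes and 1764 of these 16030. The linear model without moderation also put 0 of the 9 genes past the rule for period and for the interaction. The largest difference was that of ATP6V1B1, with a log2 signal higher by 0.22 in period 2 (standard error 0.23, unadjusted p of 0.377 from limma). Within the periods, the difference between the diets in ATP6V1B2 was 0.33 in period 1 and 0.19 in period 2, each between different cows. ATP6V1B1 changed by 0.11 and -0.19 in these periods. The interaction of diet and period is here the contrast of cows 1 and 2 against cows 3 and 4. The rule for it was passed by 0 of the 9 genes, against 2.93% of all probes and 326 of these 16030. In limma 0 of 9 had an unadjusted p under 0.05, against 10.2% of all probes and 1641 of these 16030. The unadjusted p of the interaction was 0.416 to 0.925 over the 9 genes in limma. This fit counted both arrays of a cow as separate, though the contrast is between cows. With the mean of each cow fitted in limma, the unadjusted p was 0.515 to 0.935.

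Outside the set, 17 other V-ATPase genes were matched to a probe, 1 probe each, and 14 of them were well above background on all 8 arrays. None passed the rule for diet in limma, against 0.922% of all probes, and 0 of 17 had an unadjusted p under 0.05, against 3.65%. In the linear model without moderation 1 of 17 had such a p, as did 891 of all 21475 probes. In limma it was 1 of 17 with cow as a block (1260 of all probes) and 2 of 17 with cow as a random block (1326). Normexp background correction (871 of all probes) and the deposited table (1358) gave 1 of 17 each. So did leaving out LC of cow 1 (700), HC of cow 2 (1021) or HC of cow 3 (1066). With dim probes left out, which also removed dim V-ATPase probes, 1 gene had such a p, as did 547 of the 16544 probes kept. The count was 0 in the other settings. For the 14 measured genes, log2 fold changes had a median of 0.06 and ranged from -0.06 to 0.28, and the interval of each lay within a fold change of 1.5. The largest was that of ATP6V1G2, an outer stalk isoform known from neurons, which was 4.68 ± 0.14 (SD, n = 4) on LC and 4.96 ± 0.22 (SD, n = 4) on HC, with an unadjusted p of 0.0562 from limma, or 0.0487 with cow as a block, and a higher HC signal in 4 of 4 cows. TMEM199, an assembly factor of V0 in the endoplasmic reticulum, had a log2 fold change of 0.20 (unadjusted p of 0.0818 from limma). Together with the set, 18 subunits and accessory proteins were measured, of which 12 had a log2 fold change above 0 and 6 below 0. Of all 21475 probes, 10735 were above 0. The median of the 18 was 0.06, against 0.00 for all probes. The measured assembly factors are not in this count, with 0.20 for TMEM199, 0.01 for RNASEK, -0.04 for VMA21, -0.03 for CCDC115 and -0.05 for ROGDI.

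Several genes of the set have isoforms that replace them in particular tissues. ATP6V1C2, the isoform of subunit C found in kidney, lung and placenta, was well above background on all arrays, with log2 signals of 12.11, 12.14, 12.04 and 12.25 on LC and 12.73, 12.06, 12.08 and 12.35 on HC. The HC array of cow 1 stood above the others, and the log2 fold change was 0.17 (standard error 0.17, unadjusted p of 0.359 from limma). TCIRG1, which encodes the a3 subunit of osteoclasts and was the only a subunit matched to a probe, was 10.92 ± 0.15 (SD, n = 4) on LC and 10.99 ± 0.17 (SD, n = 4) on HC. ATP6V0D2, the osteoclast isoform of subunit d, was not well above background on any array, and ATP6V1E2, the testis isoform of subunit E, on 3 of 4 arrays of each diet. Among markers of proton-secreting cells of the intercalated type, FOXI1, SLC4A9 and KIT were measured above background on each of the 8 arrays, while SLC4A1 was so on none. ATP6V1C2, given above, was also in this list, and its other genes, ATP6V0A4, ATP6V1G3 and SLC26A4, had no probe. The log2 fold changes were -0.02 for FOXI1, 0.08 for SLC4A9 and 0.27 for KIT, with unadjusted limma p values of 0.855, 0.409 and 0.456. KIT was dim, with a mean of 3.85 on LC and 4.12 on HC, and changed by 1.59, -0.12, 0.45 and -0.85 in cows 1 to 4.

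Acid made by the pump is used in lysosomes and endosomes. Of the genes listed for these organelles, 22 had a probe, all well above background on all 8 arrays. In limma none passed the rule for diet (0.922% of all probes, 0.274% of the 16030 probes that were well above background on every array). An unadjusted p under 0.05 was found for 0 of 22 in limma (3.65% of all probes, 2.61% of these 16030). Both counts were also 0 in the linear model without moderation. Their log2 fold changes were -0.15 to 0.17 with a median of 0.02, and 12 were above 0. CTSB, a cysteine protease of lysosomes, had 13.81 ± 0.13 (SD, n = 4) on LC and 13.98 ± 0.09 (SD, n = 4) on HC, with an unadjusted p of 0.122 from limma. CLCN7, the chloride-proton exchanger that works beside the pump in lysosomes, had 12.83 ± 0.17 (SD, n = 4) and 12.91 ± 0.09 (SD, n = 4). MITF and TFE3, transcription factors of lysosomal genes, were the 2 of these 22 whose LC and HC arrays did not overlap, as in 1.60% of all probes, MITF with all HC arrays below and TFE3 with all above. Their log2 fold changes were -0.12 and 0.12, with unadjusted limma p values of 0.248 and 0.200.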

How the data were processed

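The scanner files deposited by the authors hold a background-subtracted intensity per spot from Agilent Feature Extraction 10.7.3.1, not yet normalized. A second deposited file gives the authors' quantile-normalized log2 values and served as an alternative. Its columns for cows 1 and 2 followed the scanner array of the other of these cows on both diets, which leaves the diets and the pairing as they are; which file has these cows right is not known. Control spots and outlier spots (0 to 13 per array) were dropped, and log2 values of the remaining intensities were quantile-normalized with limma 3.58.1 in R 4.3.3, and spots of a probe were averaged (2 per member). A probe was well above background on an array where most of its kept spots were. Probes were named by RefSeq accession (8297 of 10176 accession probes) through the gene table of the current bovine reference, whose build differs from that of the array, so no positions are given.

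Diet, period and their interaction, the terms of the study's model, were fitted to all 21475 probes with limma, with 4 residual and 2.26 prior degrees of freedom. The fit was tested on simulated data. Exact permutation tests were run in scipy 1.17.1. Replicates are separate cows. Each cow gave both samples by the labels. The deviations of its arrays from the diet means had an r of 0.285, 0.298, 0.467 and 0.113 in cows 1 to 4, against -0.237 to 0.185 between cows. Within a diet these deviations sum to 0, which by itself lowers the values between cows, so the comparison is a description. The value of cow 4 lay below the largest value between cows. The named genes are the 10 members, their isoforms, other V-ATPase genes past the rule, up to 4 lysosomal genes past it, and the 3 genes most like ATP6V1A. None of the lists had a gene past the rule, so ATP6V1G2, TMEM199, CTSB, CLCN7, MITF and TFE3 were named after their values were seen. Members and lists were chosen with earlier results of these data known. Alternatives were normexp background correction with an offset of 50 (on median signals, as the files hold no mean signals), scaling to the 75th percentile, the deposited table, other models, a filter on dim probes, and leaving out each array.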

Additional observations from a re-analysis of the deposited data

Results flagged for a closer look

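In the LC group, the ATP6AP1 log2 signal of cow 4 (11.49) stood apart from the other 3 arrays (11.25 to 11.29), with a gap of 0.844 of the whole range of the group, above Dixon's 95% critical value for 4 samples. It was the 1 value so marked among the 18 groups of 4 arrays examined, and chance marks about 1 in 20 such groups. Cow 4 also had the highest ATP6AP1 signal on HC (11.43).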

How the results depend on the processing

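Under all 17 other settings, 0 of the 9 genes passed the rule for diet and 0 of the 17 other V-ATPase genes did. The counts for period and for the interaction also stayed at 0 where those terms were fitted, including the interaction on the mean of each cow. Of the 153 log2 fold changes fitted under these settings, 146 kept their sign and their side of the rule, and 7 changed sign, each as 1 array was left out. These were ATP6V1B1, from -0.22 to 0.13, ATP6V1C1, from -0.058 to 0.032, and ATP6V1E1, from -0.020 to 0.12. The cause was not tested. Within a single period, where no test was run, the same 3 genes turned sign, with 0.11 for ATP6V1B1 in period 1, 0.0080 for ATP6V1C1 in period 2 and -0.020 for ATP6V1E1 in period 1. With cow as a replicate block, which pairs the arrays by animal, no call changed, and the ATP6V1B2 log2 fold change stayed at 0.26. It was 0.19 with normexp and 0.26 in the deposited table, and its smallest adjusted p under any setting was 0.599. The difference of the B isoforms lay between -0.44 and -0.16 as arrays were left out, with exact p values of 0.125 to 0.514 over its settings. Each gene had 1 probe, so the mean over probes was the same value. A fold change near 1 was not detectable with 4 arrays per diet.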
